A study of Homo sapiens with 21 samples.

Results

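RNA from HMLE cells, a cell line of mammary epithelium that was made to grow without limit, was compared between day 20 of treatment with TGFβ (d20, 3 libraries) and untreated cells of day 0 (d0, 3 libraries). The members of this comparison were all genes with a mean of at least 10 normalized reads over these 6 libraries, which were 13321 of the 23201 genes listed. The whole series held 21 libraries, 3 for each of 7 timepoints, of which d10 and d15 of the same treatment were used here only to place d20. Both groups were of the same line, seeded at the same density of 200K cells per well, and they differed by TGFβ and by day. The dose of TGFβ is not given in the sources used here. No untreated cells of day 20 were among the samples, so treatment and time in culture cannot be told apart. The study calls the libraries of a timepoint biological triplicates, and no source used here says how the replicate cultures were separated, so that p-values measure the spread between these libraries, which may in part be technical. The genes at the edge of the filter were PKNOX2, with a mean of exactly 10 normalized reads, just inside, and LOC100130954, with a mean of 9.995, just outside.

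TGFβ binds a complex of type I and type II serine/threonine kinase receptors that phosphorylate SMAD2 and SMAD3, which enter the nucleus with SMAD4 and act on target genes, among them inhibitors of the pathway itself. In epithelial cells it can set off the epithelial-mesenchymal transition (EMT), in which junctions are taken apart, E-cadherin gives way to N-cadherin and the cells lay down an extracellular matrix of collagens and fibronectin. Transcription factors of the SNAI, ZEB and TWIST families drive this programme, and factors of the GRHL and OVOL families oppose it.

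The 6 libraries held between 18847917 and 21720711 reads. Values are normalized reads, that is, reads scaled by a size factor for each library. Differences are log2 fold changes on log2(value + 1), with the standard error (SE) of limma's test and p-values adjusted by the Benjamini-Hochberg method over all 13321 genes. A gene is called higher or lower where its adjusted p was under 0.05 and it differed at least 2-fold, and "rose" and "fell" are used only of called genes. A gene with at most 3 reads in every library of a group was taken as at the floor there, and its fold is a lower bound that covers counting error only. Within a group, the root mean square difference between 2 libraries was 0.22 to 0.24 (log2), and all 6 pairs of libraries of the same group differed by more than sampling noise. The basal epithelial genes KRT5 (215354, 225595 and 232097 normalized reads) and TP63 (4574, 4250.3 and 4534) were present at d0. So were the epithelial cadherin CDH1 (7314, 6946 and 7324) and the luminal keratins KRT8 (mean 7955) and KRT18 (mean 7357).

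At d20, 993 genes were higher (7.45% of those tested) and 686 were lower (5.15%) than at d0. At any fold, 4633 genes were higher (34.8%) and 4497 lower (33.8%) at an adjusted p under 0.05, since the libraries of a group lay close together. Of the genes called, 397 rose and 211 fell at least 4-fold, 208 rose and 85 fell at least 8-fold, and 103 rose and 25 fell at least 16-fold. The genes called higher held between 3.78% and 3.82% of all normalized reads in the d0 libraries and between 15.3% and 15.7% in the d20 libraries, while those called lower went from between 3.04% and 3.07% to between 1.00% and 1.01%. Of the called genes, 50 were at the floor at d0 and 21 at d20, and these were all the tested genes at the floor. Such a gene passes the filter only through the other group, so its call follows from the filter and adds no support. The counts and medians of the gene lists below include such genes. In the lists, CDH11, GREM1, POSTN, COL5A1, MFAP2, HAS2, HEYL and TIE1 passed only through d20. DSG1, KRT23, KLK11, SPRR3 and KRTDAP passed only through d0. The values of the groups did not overlap for 1673 of the 1679 called genes and for 71.3% of all genes tested. Over all genes tested, the median log2 fold change was -0.0043 with the size factors of the authors and -0.20 after rescaling the libraries to equal totals. Genes called higher made up 59.1% of all called genes with the first scaling and 45.6% with the second, so that differences near 2-fold depend on the scaling. In bulk RNA a change in the number of cells of a kind and a change in RNA per cell cannot be told apart.

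**Figure D1:**
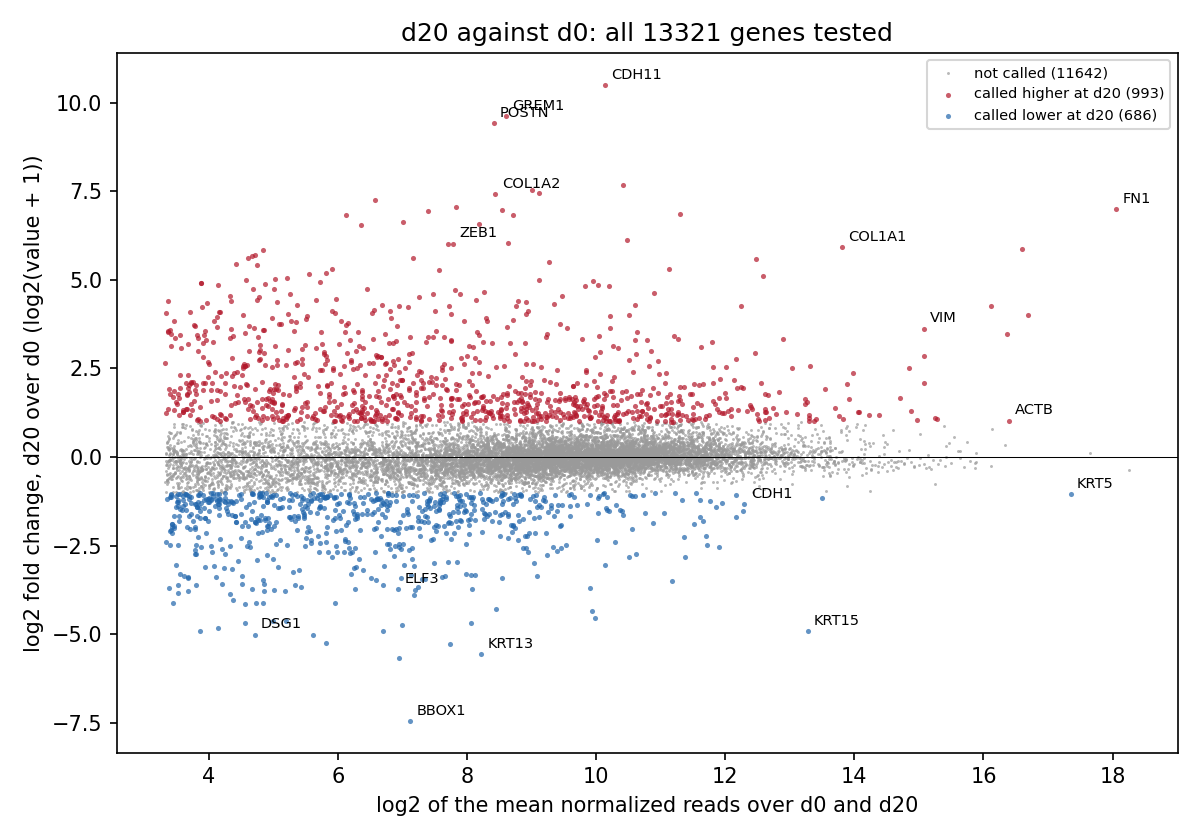
Log2 fold change of d20 over d0 (vertical axis) against the log2 of the mean normalized reads (horizontal axis) for all 13321 genes tested, 1 point a gene, with 993 called higher in red, 686 called lower in blue and the others in grey. CDH11 has the largest rise and BBOX1 the largest fall of the genes named here, and FN1 combines a log2 fold change of 6.99 with the highest mean at d20 among called genes.

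Of the 12 genes with the largest rise, 5 were collagens or matrix glycoproteins. CDH11, a mesenchymal cadherin, had 0, 0.850 and 0.990 normalized reads in the d0 libraries and 2184, 2259.6 and 2269.8 in the d20 libraries. It was at the floor in all d0 libraries and at least 820.4-fold higher at d20 (log2 fold change 10.50 ± 0.20). GREM1, a secreted antagonist of BMPs, had no read at d0 and 799, 744 and 796 normalized reads at d20, at least 286-fold higher. POSTN, the matricellular protein periostin, likewise had no read at d0 and 662, 675 and 706 normalized reads at d20, at least 249.7-fold higher. All d20 libraries lay far above all d0 libraries for these 3 genes, which passed the filter only through d20. The other genes of the 12 largest rises were SCG5 (7.68), HECW2 (7.54), FBLN5 (7.45), COL1A2 (7.43), MYO7B (7.24), CREB3L1 (7.05), FN1 (6.99), COL6A3 (6.97) and WNT5B (6.93), each with its log2 fold change. MYO7B was at the floor at d0 and at least 69.6-fold higher. SCG5 is a secretory chaperone of neuroendocrine cells, HECW2 a ubiquitin ligase and CREB3L1 a membrane-bound transcription factor of the endoplasmic reticulum that acts on collagen genes.

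Of the 12 genes with the largest fall, 6 were keratins or genes of desmosomes, the cornified envelope and the epidermal proteases. BBOX1, an enzyme of carnitine synthesis, had 303, 277 and 249 normalized reads in the d0 libraries and 0, 1.05 and 0.980 in the d20 libraries, at least 89.3-fold lower (log2 fold change -7.44 ± 0.28). KRT13, a keratin of stratified mucosa, had 540.2, 602 and 604 normalized reads in the d0 libraries and 8.48, 12.6 and 13.7 in the d20 libraries (-5.55 ± 0.15). KRT15, a keratin of basal cells, fell 30.0-fold from 19251, 18940.1 and 19362 to 643, 638 and 639 normalized reads, and it held by far the most reads at d0 of the 12 genes with the largest falls. DSG1, a desmosomal cadherin of differentiated layers, went from 59.6, 58.5 and 36.6 to 1.06, 0 and 0.980 normalized reads and was at least 16.7-fold lower. The other 8 were SPRR1A (-5.66), LZTS1 (-5.27), PRR15L (-5.23), SBSN (-5.03), ALDH3B2 (-4.92), EPHB6 (-4.73), KLK7 (-4.67) and PSAPL1 (-4.62). PSAPL1 was at the floor at d20 and at least 23.1-fold lower. BBOX1, DSG1 and PSAPL1 passed the filter only through d0, so their calls add no support. Reads of SPRR1A can be shared with other SPRR genes, so its value is uncertain.

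**Figure D2:**
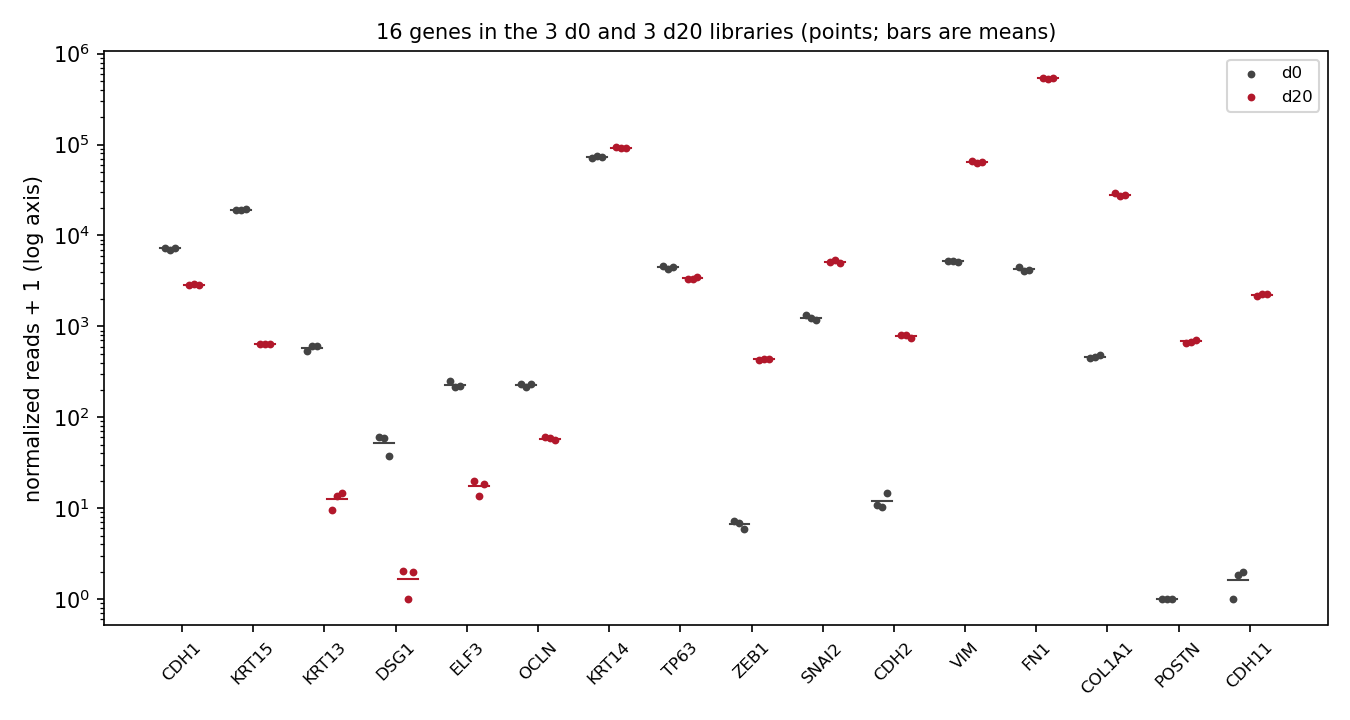
Normalized reads plus 1 (vertical log axis) of 16 genes in the 3 d0 libraries (black) and the 3 d20 libraries (red), with bars at the means. Epithelial genes stand on the left and mesenchymal genes on the right. The groups overlap for none of the 16 genes, which also held for 71.3% of all genes tested. CDH11, POSTN and DSG1 passed the filter only through 1 group. KRT14 and TP63 in the middle moved by less than 2-fold.

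The TGFβ pathway itself was first examined through its ligands, receptors and feedback genes. Of 14 ligands, receptors and latency proteins tested, 4 rose and 3 fell (median log2 fold change 0.72). The ligand TGFB1 had 1257, 1336 and 1305 normalized reads in the d0 libraries and 3404, 2874 and 2849.5 in the d20 libraries (1.22 ± 0.05), and TGFB2, a second ligand, rose by 2.63 ± 0.18 from 36.5, 31.4 and 19.8 to 153, 194 and 201. Both ligands thus lay higher in every d20 library than in any d0 library, while the groups did not overlap for 71.3% of all genes tested. LTBP1 (1.13), which holds latent TGFβ in the matrix, and its relative LTBP2 (2.35) rose, while LTBP3 (-1.19), TGFB3 (-1.17) and the co-receptor TGFBR3 (-1.66) fell. LTBP1 was not called after rescaling to equal totals (0.93) or without the second d0 library (0.998). The signalling receptors were not called, with log2 fold changes of 0.28 ± 0.06 for TGFBR1 and 0.85 ± 0.04 for TGFBR2.

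Of 14 SMADs and feedback genes, 4 rose and 1 fell. The 4 were inhibitors or ubiquitin ligases of the pathway. PMEPA1, which keeps SMADs from the receptor, had 340.0, 329 and 376 normalized reads in the d0 libraries and 12166, 11743 and 12042 in the d20 libraries, a 34.4-fold rise (log2 fold change 5.10 ± 0.04, adjusted p = 1.51e-31, limma). SMAD7, the inhibitory SMAD, had 117, 99.2 and 106 normalized reads in the d0 libraries and 525, 543 and 521 in the d20 libraries (2.29 ± 0.08). SKIL, a corepressor, rose by 1.48 and the ubiquitin ligase SMURF2 by 1.25. The signal carriers SMAD2 (-0.13), SMAD3 (0.079) and SMAD4 (0.092) were not called, and SMAD9 of the BMP branch fell (log2 fold change -1.17).

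Of 12 genes of the related BMP and activin axis, 7 rose and none fell, and their median was 1.69. They comprised the activin subunit INHBA (3.30), BMP4 (1.75), the antagonists GREM1, NOG (3.58) and FSTL3 (2.10), FSTL1 (2.05) and the BMP target ID1 (1.63). ID1 had 434, 347 and 347 normalized reads in the d0 libraries and 1259, 1122 and 1098 in the d20 libraries. Genes for ligands of the axis and genes for their antagonists were thus among those that rose.

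Of 14 EMT transcription factors tested, 10 rose and none fell, and the median of the list was 1.72. ZEB1, a repressor of epithelial genes, had 6.23, 5.94 and 4.95 normalized reads in the d0 libraries and 423, 435 and 442 in the d20 libraries (log2 fold change 6.02 ± 0.16, adjusted p = 5.21e-21, limma). Its paralog ZEB2 had 19.6, 16.96 and 10.9 normalized reads in the d0 libraries and 129, 149 and 155 in the d20 libraries (3.15 ± 0.19). SNAI2 (Slug) had 1336, 1239 and 1168 normalized reads in the d0 libraries and 5139, 5354 and 5020.4 in the d20 libraries (2.05 ± 0.04). The d20 libraries lay above all d0 libraries for these 3 genes, while the groups did not overlap for 71.3% of all genes tested. SNAI2 was already well expressed at d0. FOXC2 (3.92), the architectural factor HMGA2 (3.11), ETS1 (2.09), TWIST2 (1.96), SOX4 (1.47), TBX3 (1.34) and TWIST1 (1.15) rose as well. After rescaling to equal totals TWIST1 had 0.95 and was not called, which leaves 9. SNAI1 was at the floor in both groups, with 0, 0.850 and 0.990 normalized reads in the d0 libraries and 2.12, 0 and 1.96 in the d20 libraries, so that a change in it was not detectable at this depth. SOX9 (-0.26), LEF1 (-0.11), FOXC1 (-0.37) and TCF4 (0.73) were not called.

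The factors of epithelial identity moved the other way, with 10 of 16 lower and 1 higher (median -1.73). ELF3, an ETS factor of epithelia, had 248, 215 and 218 normalized reads in the d0 libraries and 19.1, 12.6 and 17.6 in the d20 libraries (-3.72 ± 0.16). ZNF750, a factor of epidermal differentiation, had 198, 168 and 214 normalized reads in the d0 libraries and 14.8, 14.7 and 14.7 in the d20 libraries (-3.62 ± 0.16). All 3 grainyhead-like factors fell, namely GRHL1 (-3.19), GRHL2 (-2.34) and GRHL3 (-2.66). TFAP2C (-2.99), TRIM29 (-1.81), OVOL1 (-1.80), EHF (-1.67) and OVOL2 (-1.13) fell too. KLF4 rose (log2 fold change 1.10), but was not called after rescaling to equal totals. TP63, the master factor of basal epithelium, had 4574, 4250.3 and 4534 normalized reads in the d0 libraries and 3283, 3300.5 and 3517 in the d20 libraries. Its log2 fold change of -0.40 ± 0.04 stayed under 2-fold, and its groups did not overlap, as for 71.3% of all genes tested. Of 10 splicing regulators of EMT, RBM47 (-2.58) and ESRP1 (-1.02) fell and none rose. ESRP2 was close to the threshold at -0.97, and after rescaling to equal totals 4 of the 10 were lower.

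ZEB1, ZEB2 and SNAI2 bind E-boxes such as CACCTG, which reads CAGGTG on the other strand. The promoters of 4 genes that fell, AP1M2, OCLN, RAB25 and GRHL3, are printed to show these letters near the start of epithelial genes. They were chosen after the values were seen and because they hold the letters. AP1M2 codes for an adaptor subunit of basolateral sorting in epithelia, OCLN for occludin of tight junctions and RAB25 for an epithelial GTPase of endosome recycling. The sequences are the 250 bases before the gene start in RefSeq (GRCh38.p14, while the submitters' notes name hg19), written 5′ to 3′ on the strand of the gene, with CACCTG or CAGGTG in capitals. They lie at chr19:10587313-10587562 on the minus strand, chr5:69492297-69492546 on the plus strand, chr1:156060910-156061159 on the plus strand and chr1:24319107-24319356 on the plus strand, in that order.
AP1M2: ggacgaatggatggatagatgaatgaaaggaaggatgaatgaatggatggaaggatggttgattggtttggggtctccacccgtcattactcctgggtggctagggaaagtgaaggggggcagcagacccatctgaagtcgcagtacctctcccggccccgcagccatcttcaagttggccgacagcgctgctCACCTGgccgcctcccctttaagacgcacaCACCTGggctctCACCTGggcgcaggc
OCLN: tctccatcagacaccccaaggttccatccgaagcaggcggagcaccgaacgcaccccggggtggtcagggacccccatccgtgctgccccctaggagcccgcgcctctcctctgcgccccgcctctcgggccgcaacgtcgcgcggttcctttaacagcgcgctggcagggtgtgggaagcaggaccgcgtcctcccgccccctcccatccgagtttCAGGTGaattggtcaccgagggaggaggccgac
RAB25: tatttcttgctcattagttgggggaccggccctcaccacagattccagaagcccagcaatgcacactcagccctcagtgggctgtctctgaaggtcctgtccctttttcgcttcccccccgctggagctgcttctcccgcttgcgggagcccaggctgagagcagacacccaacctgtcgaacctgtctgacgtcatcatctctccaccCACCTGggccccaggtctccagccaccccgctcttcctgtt
GRHL3: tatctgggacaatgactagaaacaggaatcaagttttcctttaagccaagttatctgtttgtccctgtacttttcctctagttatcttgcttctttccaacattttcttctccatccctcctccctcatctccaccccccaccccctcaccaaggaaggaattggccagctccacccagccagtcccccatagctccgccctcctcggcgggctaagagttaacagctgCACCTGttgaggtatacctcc
The matches begin 57, 27 and 15 bases before the start of AP1M2, and 33, 41 and 21 bases before the starts of OCLN, RAB25 and GRHL3. Of the 27305 promoters in the table, 17.5% hold at least 1 match on either strand in this window and 0.472% hold 3 or more. A match is a description of the letters and not a binding site. The table matched 9235 of the tested genes by symbol (69.3%), too few for a comparison between called genes and the others, and none was made. In the libraries, AP1M2 had 1816, 1869 and 1788 normalized reads in the d0 libraries and 707, 699 and 729.5 in the d20 libraries (log2 fold change -1.36 ± 0.04) and RAB25 had 1518, 1534 and 1623 normalized reads in the d0 libraries and 526, 533 and 499 in the d20 libraries (-1.58 ± 0.05). OCLN had 232, 216 and 229 normalized reads in the d0 libraries and 59.4, 57.9 and 54.8 in the d20 libraries (-1.96 ± 0.11).

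Of 9 cadherins and catenins, 4 rose and 1 fell. CDH1, which codes for E-cadherin of adherens junctions, had 7314, 6946 and 7324 normalized reads in the d0 libraries and 2838, 2910.0 and 2857 in the d20 libraries, a 2.51-fold fall (log2 fold change -1.33 ± 0.03, adjusted p = 8.56e-22, limma). CDH2, which codes for N-cadherin, had 9.79, 9.33 and 13.8 normalized reads in the d0 libraries and 797, 798 and 751 in the d20 libraries, a 71.2-fold rise (6.05 ± 0.14). CDH1 was thus lowered without being lost, and CDH2 went from close to the floor to at least 751 normalized reads. CDH4 (3.28) and CDH13 (1.29) rose along with CDH11. CDH3, the P-cadherin of basal cells, had -0.15 ± 0.03, and CTNNA1 (0.13) and CTNNB1 (0.27) of the catenins were not called.

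Desmosomes anchor keratin filaments at cell contacts, and 7 of 15 desmosome genes fell and none rose (median -0.97). DSC1 (-2.59), the plakins EVPL (-2.55) and PPL (-2.46), DSG3 (-1.52), PERP (-1.16) and DSC2 (-1.08) fell beside DSG1. PPL, periplakin, had 5637, 5615 and 5874 normalized reads in the d0 libraries and 1060.0, 1011 and 1028 in the d20 libraries. The core linker DSP had 21103, 20446 and 20618 normalized reads in the d0 libraries and 14475, 14872 and 14877 in the d20 libraries, a log2 fold change of -0.49 ± 0.03 that did not reach 2-fold, and JUP (-0.54), PKP1 (-0.22) and DSG2 (0.13) were not called either. Rescaling to the same total brought the count to 9.

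Of 14 tight junction genes, 8 fell and none rose (median -1.18). They were CXADR (-3.43), TJP3 (-3.35), CLDN1 (-2.49), OCLN (-1.96), CGN (-1.82), MARVELD3 (-1.45), CLDN4 (-1.23) and MARVELD2 (-1.13). CLDN1, a barrier-forming claudin, had 1321, 1195 and 1244 normalized reads in the d0 libraries and 209.9, 223 and 234 in the d20 libraries. The scaffold TJP1 (ZO-1) was not called, with a log2 fold change of 0.69 ± 0.03, nor was the adhesion molecule F11R at 0.0042 ± 0.03.

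Of 15 epithelial surface proteins and sorting genes, 9 fell and none rose (median -1.23). EPCAM, an epithelial adhesion molecule, had 2162, 2058 and 2099 normalized reads in the d0 libraries and 387, 404 and 416 in the d20 libraries (-2.39 ± 0.05). MAL2, a protein of apical transport, had 4408, 4138 and 4219 normalized reads in the d0 libraries and 337, 377 and 429.9 in the d20 libraries (-3.48 ± 0.06). CCDC64B, CLCA2, ST14, RAB25, AP1M2 and PRSS8 fell as well, with log2 fold changes between -3.09 and -1.08. CD24 (-0.015) and the protease inhibitors SPINT1 (-0.40) and SPINT2 (-0.22) were not called.

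Keratins form the intermediate filaments of epithelia, and they moved in both directions. Of 17 tested, 7 fell and 2 rose. KRT5, the type II keratin of basal cells, had 215354, 225595 and 232097 normalized reads in the d0 libraries and 108717, 109661 and 109769 in the d20 libraries, a log2 fold change of -1.04 ± 0.03 just past 2-fold. KRT14, its basal partner, had 70384, 74242 and 73695 normalized reads in the d0 libraries and 93009, 90783 and 91298 in the d20 libraries (0.33 ± 0.03), and KRT17 had 0.31. KRT7, a keratin of simple epithelia, rose from 12974, 12828 and 13559 to 57063, 56384 and 54962 (2.10 ± 0.03), and KRT34 rose by 3.02. KRT8 (-0.024), KRT18 (-0.59) and KRT19 (0.26) of luminal cells were not called. The values of KRT6A, KRT6B, KRT6C, KRT14, KRT16 and KRT17 are uncertain, since reads of these near-identical genes can be shared.

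Genes of the cornified envelope and of the epidermal protease cascade belong to terminal differentiation of stratified epithelium. Of 16 cornified envelope genes 10 fell and 2 rose (median -1.90), and of 14 kallikreins and epidermal protease inhibitors 12 fell and none rose (median -2.69). The share lower among all genes was 5.15%. Of the genes that fell, SPRR3, KRTDAP and KLK11 passed the filter only through d0. KLK7, a protease of skin shedding, had 501, 517 and 531 normalized reads in the d0 libraries and 13.8, 22.1 and 23.5 in the d20 libraries (-4.67 ± 0.15). SERPINB13 had 1027, 976 and 956 normalized reads in the d0 libraries and 91.2, 95.8 and 98.9 in the d20 libraries (-3.36 ± 0.07). TGM1, the crosslinking enzyme of the envelope, had a log2 fold change of -2.56 ± 0.14. IVL, which codes for involucrin, went against the list with 89.9, 113 and 125 normalized reads at d0 and 675, 635 and 640.4 at d20 (2.58 ± 0.09), as did LCE3D (4.42 ± 0.43).

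**Figure D3:**
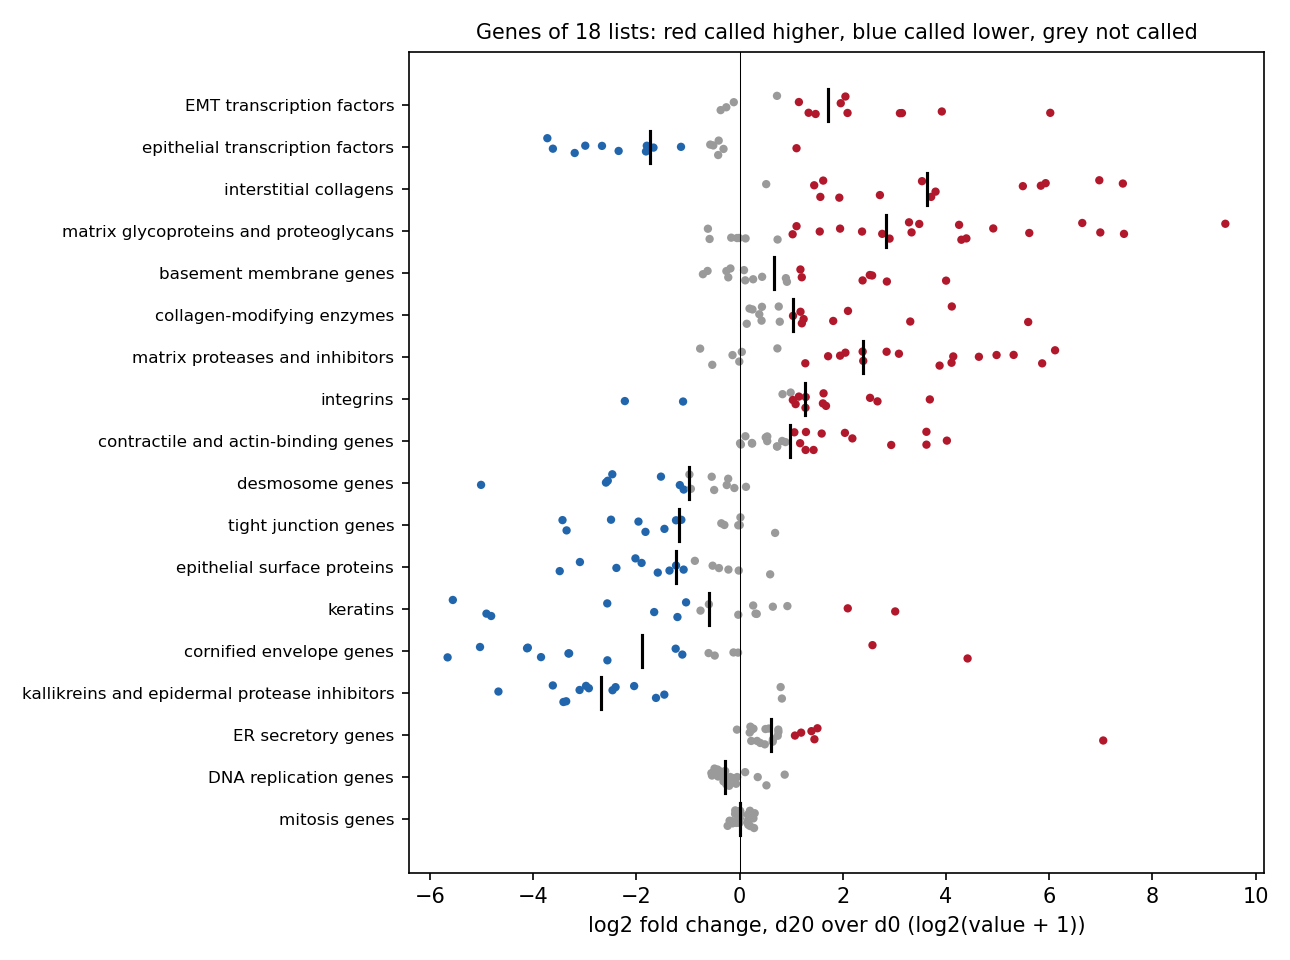
Log2 fold change of d20 over d0 (horizontal axis) of the tested genes of 18 lists (rows), 1 point a gene, red where called higher, blue where called lower and grey where not called, with a black bar at the median of each list. Matrix lists lie to the right, with 13 of 14 interstitial collagens in red, and epithelial lists to the left, while replication and mitosis genes gather around 0 with none called.

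The gain in reads was concentrated in few genes. The sum of all normalized reads rose from a mean of 18440200 at d0 to 21183400 at d20, and the genes called higher gained 2578370, of which the 10 genes with the largest gain gave 55.7%. FN1, TGFBI, THBS1, ACTB, VIM, LAMA3, KRT7 and LAMB3 were among them. FN1, which codes for fibronectin, had 4451, 4110.3 and 4168 normalized reads in the d0 libraries and 546116, 531997 and 539815 in the d20 libraries, a 127-fold rise (log2 fold change 6.99 ± 0.03, adjusted p = 2.71e-37, limma). It held 2.55% of all normalized reads at d20, a share that also depends on the length of its transcript. THBS1, thrombospondin 1, an activator of latent TGFβ, had 7304, 6629 and 7189 normalized reads in the d0 libraries and 131616, 131724 and 139563 in the d20 libraries (4.25 ± 0.03). TGFBI, a matrix protein named for its induction by TGFβ, had 14026, 13919 and 13589 normalized reads in the d0 libraries and 156484, 152243 and 155472 in the d20 libraries (3.48 ± 0.03). For each of these genes the lowest d20 library lay more than 10-fold above the highest d0 library.

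**Figure D4:**
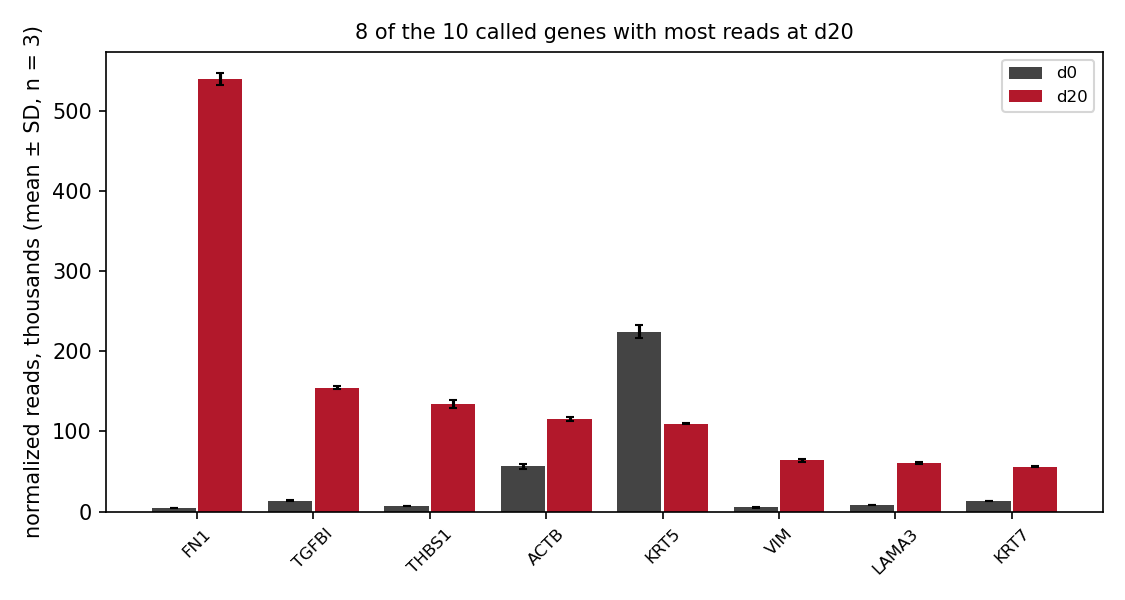
Normalized reads, divided by 1000 (vertical axis, mean with SD, n = 3) of 8 of the 10 called genes with the highest mean at d20, at d0 (black) and at d20 (red). FN1 stands at 539309 normalized reads at d20, and KRT5 is the only gene of the 8 that fell.

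Interstitial collagens give tissue its tensile strength. Of 14 tested 13 rose and none fell, with a median of 3.62. COL1A1, the alpha 1 chain of type I collagen, had 449, 457 and 479 normalized reads in the d0 libraries and 29587, 27336 and 27776 in the d20 libraries, a 61.2-fold rise (5.93 ± 0.04). COL1A2, its partner chain, had 2.67, 2.54 and 3.96 normalized reads in the d0 libraries and 748, 699.9 and 625 in the d20 libraries (7.43 ± 0.17). COL6A3, a chain of type VI collagen, had 2.67, 8.48 and 4.95 normalized reads in the d0 libraries and 764, 759.9 and 701 in the d20 libraries (6.97 ± 0.21). COL5A1 had no read at d0 and 65.7, 60.0 and 45.04 normalized reads at d20, at least 20.9-fold higher. All 3 chains of type VI collagen rose, with COL6A1 at 1.93 and COL6A2 at 3.71. COL16A1 was the member not called (0.52 ± 0.03).

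Of 26 matrix glycoproteins and proteoglycans 19 rose and none fell (median 2.84). Among the 19, POSTN, MFAP2 and HAS2 passed the filter only through d20. VCAN, the proteoglycan versican, had 0.890, 3.39 and 0.990 normalized reads in the d0 libraries and 243, 234 and 286 in the d20 libraries (6.64 ± 0.27). FBLN5, fibulin 5 of elastic fibres, had 7.12, 4.24 and 4.95 normalized reads in the d0 libraries and 1137, 1047 and 1132 in the d20 libraries. The microfibril genes FBN1 (4.40), FBN2 (3.28), MFAP5 (2.77) and MFAP2, the last at least 17.9-fold from the floor, rose together, as did the matricellular genes TNC (2.37), CTGF (2.91), CYR61 (3.33) and SPARC (1.03). THBS2 (-0.58) and the syndecans SDC1 (-0.049) and SDC4 (0.12) were not called, and CD44, the hyaluronan receptor, had 0.74 ± 0.03. After rescaling to equal totals 17 of the 26 were higher, and SPARC (0.83) was not among them.

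The enzymes that modify collagen rose in part, 9 of 17 with none lower (median 1.04). TGM2, a transglutaminase, had 247, 218 and 229 normalized reads in the d0 libraries and 11471, 10752 and 11387 in the d20 libraries (5.59 ± 0.04). LOX, lysyl oxidase, had 334, 329 and 303 normalized reads in the d0 libraries and 3351, 3019 and 3221 in the d20 libraries (3.31 ± 0.05), and LOXL1 (2.10) and LOXL2 (1.24) rose too. The collagen chaperone SERPINH1 (0.25) and P4HB (0.76), a subunit of prolyl 4-hydroxylase, were not called. In the secretory pathway 6 of 22 genes rose and none fell. At any fold 21 of the 22 were higher at an adjusted p under 0.05, beside 34.8% of all genes, with a median of 0.60 (0.40 after rescaling to the same total). SSR3 of the translocon-associated complex had 3812, 3754 and 3741 normalized reads in the d0 libraries and 9885, 9858 and 9975 in the d20 libraries (1.39 ± 0.03), and SEC24D, a coat protein of transport vesicles, rose by 1.51.

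Basement membrane genes moved unevenly, with 7 of 18 higher and none lower. The laminin chains LAMA3 and LAMB3, which serve to anchor basal epithelium, rose by 2.85 ± 0.03 and 2.52 ± 0.03. COL4A1 (2.57) and COL4A2 (2.38) of type IV collagen, COL7A1 (1.21) of anchoring fibrils and LAMB1 (1.18) rose as well, and LAMB1 (0.98) was not called after rescaling to equal totals. LAMA5 (-0.71), HSPG2 (-0.18) and COL17A1 (0.44) were not called.

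Integrins, the receptors for matrix, rose for 11 of 15 and fell for 2. ITGB3 had 1.78, 3.39 and 2.97 normalized reads in the d0 libraries and 49.8, 36.8 and 52.9 in the d20 libraries (3.69 ± 0.31), and ITGB6, which with ITGAV forms an integrin that frees latent TGFβ, had 1222, 1199 and 1232 normalized reads in the d0 libraries and 6969, 7048 and 7085 in the d20 libraries (2.53 ± 0.03). ITGAV (1.28), the fibronectin receptor chain ITGA5 (1.63), the hemidesmosome chain ITGB4 (1.68) and ITGB2 (2.67) rose. ITGB8 (-2.22) and ITGA7 (-1.09) fell, but ITGA7 was not called without the second d20 library (-0.77). Several integrins lay near 2-fold, and after rescaling to equal totals 8 were higher. ITGA2 had 0.99 ± 0.04 and was not called, but it was called with 1.04 without the first d0 library and 1.02 without the first d20 library.

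Of 22 matrix proteases and their inhibitors 16 rose and none fell (median 2.39). MMP9, a gelatinase, had 39.2, 46.6 and 33.6 normalized reads in the d0 libraries and 2991, 2673 and 2752 in the d20 libraries (6.11 ± 0.09), and MMP2, the other gelatinase, had 59.6, 71.2 and 50.5 normalized reads in the d0 libraries and 1944, 1912 and 1905 in the d20 libraries (4.98 ± 0.09). The membrane protease MMP14 (2.05), ADAM19 (5.31), ADAM12 (4.14), ADAMTS1 (3.88), PLAU (1.95) and its receptor PLAUR (1.27) rose. The inhibitors SERPINE2 (4.64) and TIMP2 (1.72) rose with them, while TIMP1 (0.73) and TIMP3 (0.044) were not called.

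In the cytoskeleton 12 of 24 contractile and actin-binding genes rose and none fell (median 0.98). VIM, the mesenchymal intermediate filament vimentin, had 5215, 5231 and 5097 normalized reads in the d0 libraries and 65859.7, 61979 and 63607 in the d20 libraries, a 12.3-fold rise (3.62 ± 0.03). TAGLN, the actin-binding transgelin, had 166, 186 and 152 normalized reads in the d0 libraries and 2776, 2652 and 2764 in the d20 libraries (4.02 ± 0.06). TPM1 (2.19), MYL9 (2.04), MYH9 (1.29) and ACTN1 (1.28) rose as well. ACTA2, the smooth muscle actin of myofibroblasts, had 354, 342 and 339 normalized reads in the d0 libraries and 513, 485 and 476 in the d20 libraries and was not called (0.51 ± 0.06), and CNN1, DES and ACTG2 were at the floor in both groups. ACTB rose by 1.03 ± 0.03, but it fell short of 2-fold with 0.98 without the first d0 library, 0.83 after rescaling to the same total and 0.45 after quantile normalization.

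Receptors and ligands of other pathways moved in both directions. Of 27 receptor tyrosine kinases and ligands 8 rose and 6 fell. FGFR1 had 24.0, 28.0 and 16.8 normalized reads in the d0 libraries and 136, 126 and 138 in the d20 libraries (2.52 ± 0.17), whereas FGFR3 had 4445, 4892 and 4672 normalized reads in the d0 libraries and 666, 686 and 631 in the d20 libraries (-2.82 ± 0.04) and FGFR2 fell (-1.18). AXL (1.78), PDGFRB (1.59), ROR1 (2.74), EPHB2 (1.80) and the EGFR ligand AREG (2.50) rose, and ERBB3 fell (-2.76). EGFR was not called at 0.27 ± 0.03. Of 14 genes of the WNT axis 7 rose and 2 fell, with WNT5B from 0.890, 0.850 and 4.95 to 324, 354 and 328 normalized reads and WNT4 from 271, 278 and 272 to 29.7, 13.7 and 17.6. The DKK genes DKK1 (1.68), DKK2 (3.56) and DKK3 (1.08) rose, of which DKK3 had 0.88 after rescaling to equal totals and was not called. SFRP1 of the same list was not called (-0.44). Of 14 Notch genes 4 rose and 2 fell. NOTCH3 had 2013, 2087 and 1940.2 normalized reads in the d0 libraries and 232, 286 and 218 in the d20 libraries (-3.04 ± 0.07) and NOTCH4 32.9, 30.5 and 28.7 normalized reads in the d0 libraries and 297, 290.5 and 305 in the d20 libraries (3.24 ± 0.12), so that these receptors moved in opposite directions, while the ligand JAG1 (1.52) and the target HEYL rose, HEYL at least 18.5-fold from the floor.

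Of 26 cytokines and chemokines 9 rose and 5 fell. CXCL1, a chemokine for neutrophils, had 24.9, 22.9 and 13.8 normalized reads in the d0 libraries and 436, 339 and 433 in the d20 libraries (4.26 ± 0.17), and CSF2, a growth factor of myeloid cells, had 5.34, 2.54 and 2.97 normalized reads in the d0 libraries and 123, 80.0 and 88.1 in the d20 libraries (4.43 ± 0.27). IL8 (2.91), IL11 (2.83), CSF3 (3.39), IL32 (4.04) and IL1A (1.78) rose. The epithelial chemokine CXCL14 had 286, 261 and 271 normalized reads in the d0 libraries and 20.1, 16.8 and 15.7 in the d20 libraries (-3.89 ± 0.14), and the alarmins S100A8 (-2.55) and S100A9 (-2.96) fell with IL1RN (-3.43). IL6 was at the floor in both groups. Of 23 interferon-stimulated genes 4 rose and 2 fell, and 1 was higher and 3 were lower after rescaling to the same total, so no direction held for that list.

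Genes of DNA replication and mitosis did not pass the 2-fold threshold in either direction, 0 of 25 in each list, also by edgeR and DESeq2. Among all genes tested 7.45% were called higher and 5.15% lower. MKI67, a marker of cycling cells, had 10626, 10739 and 10649 normalized reads in the d0 libraries and 11872, 12183 and 12311 in the d20 libraries (0.18 ± 0.03), and TOP2A, a topoisomerase of dividing cells, had 16845, 17228 and 16706 normalized reads in the d0 libraries and 16703, 16846 and 17507 in the d20 libraries (0.0077 ± 0.03). At any fold 19 of the 25 replication genes were lower and 3 higher at an adjusted p under 0.05 (median -0.28, and -0.48 after rescaling to equal totals), and of the mitosis genes 11 were higher and 5 lower (median 0.008, and -0.19 after rescaling). Of all genes 34.8% were higher and 33.8% lower by this measure. CDKN1A, which codes for the cell cycle inhibitor p21, had 1937, 1831 and 1668 normalized reads in the d0 libraries and 6418, 5529 and 5456 in the d20 libraries (1.68 ± 0.05), and CCND1, cyclin D1, had 1284, 1304 and 1451 normalized reads in the d0 libraries and 3824, 3852 and 3739.6 in the d20 libraries (1.5002 ± 0.04). CDKN2B, an inhibitor that TGFβ can induce, was not called at -0.11 ± 0.06, nor was MYC at -0.40 ± 0.06. No cholesterol synthesis gene of 19 was called, where the shares called among all genes would also give few calls. Of 27 glycolysis and hypoxia genes CA9, a carbonic anhydrase, fell from 1756, 1824 and 1763 to 147, 136 and 127 normalized reads and the lactate transporter SLC16A3 rose by 1.54, while GAPDH had 0.10 ± 0.03.

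Basal epithelial markers moved in both directions. Of 13 basal mammary markers 5 rose and 2 fell. The laminin chains LAMA3 and LAMB3 and the integrins ITGA6 (1.15) and ITGB4, which are also matrix and adhesion genes, rose, and the 2 that fell were KRT15 and KRT5. ITGA6 had 0.95 after rescaling to equal totals, which leaves 4 higher. None of 5 luminal markers tested was called, but 7.45% of all genes were higher and 5.15% lower, shares that give few calls in so short a list. Of 12 surface markers used for mammary stem-like cells 5 rose and 1 fell. THY1 had 1394, 1395 and 1336 normalized reads in the d0 libraries and 6263, 6415 and 6434 in the d20 libraries (2.21 ± 0.03), NT5E (CD73) 1321, 1272 and 1326 normalized reads in the d0 libraries and 9609.6, 10132 and 10156 in the d20 libraries (2.93 ± 0.03) and MME (CD10) 99.7, 100.1 and 98.0 normalized reads in the d0 libraries and 1089, 1104 and 1118 in the d20 libraries (3.46 ± 0.07), and NGFR fell (-1.81). CD44 and CD24, often used as a pair, did not reach 2-fold.

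Markers of other cell types were examined in the same libraries. Of the 12 fibroblast markers 7 were tested, of which 6 rose and 1, S100A4 (-1.05), fell. S100A4 was not called without the first d0 library (-0.90) or the second d20 library (-0.92). The summed level of the list went from between 1962 and 2026 normalized reads at d0 to between 35236 and 37422 at d20, but 3 of the 6 risen markers are collagens already counted above. The defining fibroblast genes DCN, LUM and TCF21 were at the floor in both groups, and PDGFRA and PRRX1 were below the filter. PRRX1, which is also on the list of EMT transcription factors, had means of 0.28 at d0 and 15.5 at d20 and was not tested. Of 9 endothelial markers 4 were tested, and TIE1, at least 17.3-fold from the floor, and TEK (3.35) rose while PECAM1 (-1.71) and KDR (-1.63) fell. Their sum was between 96.0 and 117 at d0 and between 92.6 and 132 at d20, with CDH5 and CLDN5 at the floor. Of 9 leukocyte markers 4 were tested, with LAPTM5 higher and CD14 lower and a sum of 464 to 478 at d0 and 876 to 916 at d20. PTPRC, CD3E and TYROBP were at the floor. Of 10 melanocyte and neural markers 3 of 6 tested rose, L1CAM (2.34), NCAM1 (1.34) and TUBB3 (1.09), with a sum of 1029 to 1087 at d0 and 3141 to 3213 at d20. SOX10, TYR and DCT were at the floor in both groups. The part of other cell types in the results was not tested beyond these values.

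The place of d20 in the course was examined against d10 and d15, 2 comparisons that share the d20 libraries. Against d10, 451 genes were higher (3.39% of those tested) and 52 lower (0.39%) at d20. Against d15, 1044 were higher (7.84%) and 916 lower (6.88%). By number of calls d20 was thus nearer to d10 than to d15. Of the 993 genes higher at d20 than at d0, 330 (33.2%) had their highest mean of the 7 timepoints at d20, beside 9.30% of all genes, which the choice of these genes by their level at d20 favours. Of the 686 lower genes 340 (49.6%) had their lowest mean at d10, beside 17.6% of all genes, and 177 (25.8%) at d20, beside 9.43% of all genes, where their choice by the level at d20 again favours d20.

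Several collagens were higher at d20 than at d10 or d15. Of the 14 interstitial collagens 9 were higher than at d10 and none lower (median 1.47), and 6 were higher than at d15 and none lower (median 0.72). COL1A1 had 3903 ± 162 normalized reads at d10 (SD, n = 3), 9317 ± 505 at d15 and 28233 ± 1193 at d20, and the last lay above d15 by 1.60 ± 0.03 (adjusted p = 5.55e-30, limma) and above d10 by 2.85 ± 0.03. CDH2 had 224 ± 11.99 at d10, 217 ± 2.86 at d15 and 782 ± 26.8 at d20. ZEB1 had 185 ± 16.7, 213 ± 20.8 and 433 ± 9.45 on these days. The means of these 3 genes were highest at d20 of all 7 timepoints. FN1, by contrast, differed by 0.17 ± 0.02 from d10 and by 0.28 ± 0.03 from d15, and PMEPA1 by -0.20 and 0.14, none of which was called. POSTN and FBLN5 were higher than at d10 (1.46 and 3.02) and not called against d15 (-0.23 and -0.076).

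Cell cycle genes were among those that differed from d15. All 25 mitosis genes were higher at d20 than at d15 (median 1.57), as were 22 of 25 replication genes (median 2.04), and none of either list was called against d10. MKI67 had 11288 ± 408 normalized reads at d10, 3291 ± 83.3 at d15 and 12122 ± 226 at d20. RRM2, a subunit of ribonucleotide reductase, had 809.7 ± 36.0 at d15 and 7480.4 ± 128 at d20. CDKN1A was highest at d15, with 23196 ± 429, and had 5801 ± 536 at d20 (-2.003 ± 0.04). The immediate early gene FOS had 2731 ± 151 at d15 and 126 ± 27.5 at d20 (-4.44 ± 0.08), and KRT17 had a log2 fold change of -1.94 from d15 to d20. Epithelial genes differed too, with CDH1 at 6337 ± 167 at d15 and 2868 ± 37.5 at d20 (-1.14 ± 0.03). Against d15, 5 of 15 desmosome genes and 4 of 16 epithelial factors were lower at d20, beside 6.88% of all genes. Against d10 none of either list was lower, and 3 of the 16 factors were higher, beside 3.39% of all genes. The part of cell growth in these differences was not tested. The largest differences from d15 were those of ANGPTL4 (4.28), CSF2 (4.23) and MMP1 (4.20), which were higher, and EDN2 (-4.58) and SCNN1G (-4.50), which were lower.

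**Figure D5:**
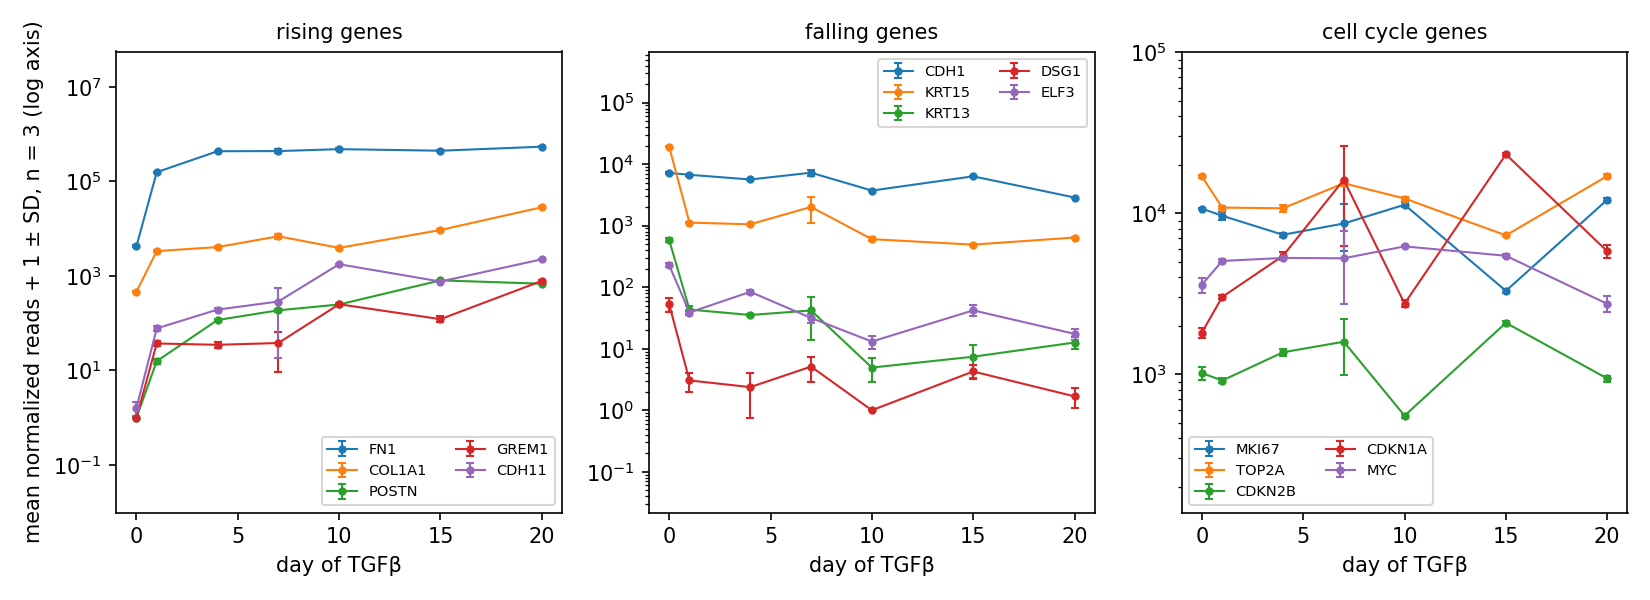
Mean normalized reads plus 1 (vertical log axis) with SD (n = 3) against the day of TGFβ (horizontal axis) for 5 genes that rose, 5 that fell and 5 cell cycle genes. COL1A1 and GREM1 reach their highest mean at d20, CDH1 and DSG1 lie below d0 there, and MKI67 and TOP2A are low at d15 and back at or above their d0 level at d20. The bars are widest at d7, where the libraries differed from each other (CDH11 285 ± 268).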

How the data were processed

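Total RNA of HMLE cells was extracted with Trizol and sequenced from standard Illumina libraries, per the labels. The authors deposited one normalized signal for each of 23201 gene symbols and each of 21 libraries. The submitters' processing notes name STAR 2.7, Salmon 1.4 and hg19, with no role or order, and the annotation, the counting settings and the tool of the normalization are not given in the sources used here. To make this signal, the reads of a gene were scaled by a size factor, 1 for each library, and rounded to 2 decimals. Whole reads came back for 100% of the values under 1000 in every library, within 0.006 of a normalized read. A value therefore depends on the size factors, and a few strongly expressed genes move any scaling to the library total. Counting error sets the precision of low values.

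Genes with a mean of at least 10 over the d0 and d20 libraries entered limma 3.58.1 (R 4.3.3) as log2(value + 1), where lmFit, contrasts.fit and a trended eBayes were used, with only the libraries of the groups compared in a fit. Tests were two-sided, with Benjamini-Hochberg adjustment over all 13321 genes. The same genes were compared between d20 and d10 and between d20 and d15. Lists of genes are described by counts and medians and were not tested as sets. Some lists share genes. On the recovered reads, edgeR 4.0.16 (quasi-likelihood test) called 994 genes higher and 718 lower at d20 than at d0, and DESeq2 1.42.0 called 1000 and 701. Simulated data had 13232 genes tested, of which 200 were changed. On these data limma, edgeR and DESeq2 each called 199 of the changed genes and 0 others. The sizes of the differences, the read levels and the spread between libraries that were set in these data are not given here. The totals therefore do not show how often a difference near 2-fold or at low reads is called, which was not tested. Alternatives tried were no filter or a mean of at least 50, a pseudocount of 10, other scalings, all 21 libraries in the fit, the 2 count tests, no minimum fold or 4-fold, and the omission of single libraries.

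The comparison, the gene lists and the tests were chosen with earlier results of these data known. The genes named are the 12 largest rises and falls among genes with a mean of at least 50 in d0 or d20, up to 4 called and 2 other members of each list, the 10 called genes with the highest mean at d20, the 5 largest differences in each direction from d10 and d15, and a fixed set of hallmark genes. Further members of a list are named beside its count. A few genes of these sets are not reported here, although the counts include them. Promoters come from RefSeq (GRCh38.p14). Python 3.11.15 with matplotlib 3.10.9 drew the figures.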

Additional observations from a re-analysis of the deposited data

How the results depend on the processing

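At d20 against d0, 994 genes were higher and 718 lower by edgeR, and 800 and 953 after rescaling to equal totals. Leaving out 1 library at a time gave between 994 and 1002 higher and between 693 and 710 lower genes. Over 6 counts of called genes, 74 of 96 alternatives stayed within 1.5 times the count reported and 22 did not. With no minimum fold, 4633 genes were higher and 4497 lower than at d0, 5288 and 5052 than at d15, and 3564 and 3998 than at d10. At 4-fold these were 397 and 211, 165 and 148, and 54 and 1. Without a filter on low values, 1074 genes were lower than at d0, 1399 than at d15 and 95 than at d10. With a mean of at least 50, 414 were lower than at d0, 586 than at d15, and 226 higher and 28 lower than at d10. A pseudocount of 10 gave 219 higher and 28 lower than at d10, and quantile normalization 99 lower. The filter alternatives change the genes tested and the fold alternatives the threshold of a call, both by construction, and the cause of the others was not tested. For named genes, a change of sign in a gene called in neither setting was counted as leaving the call as it was. Of 3096 alternatives for 224 named genes, 3081 left the call as it was, 13 ended it, 2 made one and 0 reversed the direction of a called gene. Those that ended it concerned, among the named genes, ACTB, TWIST1, TUBB3 (0.89), IFITM2 (0.98) and RTN1 (0.96) after rescaling to equal totals, with ACTB and RTN1 under other settings too, and RTN1 (0.74), NCAM1 (0.75), LRAT (-0.85) and IFI44L (-0.97) with a pseudocount of 10. Over all 576 tested members of the lists, beyond the named genes too, rescaling to equal totals ended 21 calls, among them LTBP1, LAMB1, DKK3, ITGA6, SPARC and KLF4, and made 8. A pseudocount of 10 ended 12, among them TGFB3, SMAD9, ITGA7 and S100A4, and made none, and quantile normalization ended 10 and made 5. No paired analysis was possible because no replicate number stands in the column headers, which give the day alone. Genes at the floor of 3 reads limit what this depth can show.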

Other observations

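Some genes did not follow the days of treatment in one direction. Of those given here, LOX was called at d20 against d0 (3.31), while KRT17 (0.31) and FST (0.53) were not. KRT17, a keratin of activated basal cells, had 33505 ± 633 normalized reads (SD, n = 3) on day 4, 136342 ± 70675 on day 7, 13305 ± 807 on day 10, 186677 ± 4734 on day 15 and 48718 ± 1517 at d20. LOX, lysyl oxidase, had 5349 ± 265 on day 4, 10039 ± 1558 on day 7, 993 ± 68.7 on day 10, 12325 ± 350.3 on day 15 and 3197 ± 167 at d20. Both means were higher at d15 than at d10, a difference that was not tested, and both genes were lower at d20 than at d15. Reads of KRT17 can be shared with KRT14 and KRT16. FST, which codes for the activin antagonist follistatin, had 115 ± 7.79 at d0, 433 ± 17.3 at d1, 666 ± 32.6 at d10, 116 ± 3.52 at d15 and 167 ± 22.2 at d20, low at d15 and d20 and highest at d10. The libraries of d7 differed from each other, which the SD of KRT17 on that day shows.

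Other genes were late. CADM3, a cell adhesion molecule of neural tissue, had 2.13 ± 1.10 at d0, 6.57 ± 3.09 on day 10, 45.1 ± 6.37 on day 15 and 110.3 ± 20.9 at d20, and at d20 it was 3.94 ± 0.25 above d10 on the log2 scale (adjusted p = 4.66e-14, limma) and 1.26 ± 0.16 above d15. TAGLN had 168 ± 16.8 at d0, 564 ± 39.8 on day 10, 2820.3 ± 12.2 on day 15 and 2731 ± 68.4 at d20, where it did not differ by 2-fold from d15.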
